A study of Mus musculus with 32 samples.

Results

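The transcripts of 9 genes of β-adrenergic and cAMP signalling were followed through the day in iBAT, the interscapular depot of brown fat, a tissue that burns fuel to make heat. The genes were Adrb1, Adrb3, Gnas, Adcy3, Adcy6, Pde3b, Prkaca, Prkar1a and Prkar2b and were taken by name. Each symbol matched 1 Ensembl identifier, so that 9 of the 50686 genes in the count table are described. All 9 passed the filter on low counts, which left 15505 genes. The tissue came from 32 male, non-fasted C57BL/6J mice that were 10 weeks old. They carried no transgene or treatment, and they differed by the Zeitgeber time (ZT, hours after lights on) at which they were killed. Per the paper, all were fed chow and housed in mild cold, that is, below the thermoneutral zone. ZT0, ZT3, ZT6 and ZT9 lay in the light (inactive) phase and ZT12, ZT15, ZT18 and ZT21 from the onset of the dark (active) phase, with 4 mice at each time point and 1 library per mouse. Each mouse was sampled once, so no animal was followed over time.

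Sympathetic nerves release noradrenaline onto brown adipocytes. β-adrenergic receptors there activate the stimulatory G protein, whose α subunit is encoded by Gnas, and this protein turns on adenylyl cyclases that make the second messenger cAMP. Phosphodiesterases break cAMP down. Its main effector is protein kinase A (PKA), which is held inactive by its regulatory subunits (Prkar1a, Prkar2b) and released as free catalytic subunits (Prkaca) when cAMP binds, after which it drives lipolysis and thermogenesis. Transcript levels, as measured here, give neither receptor number at the membrane nor cAMP level nor kinase activity.

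Total counts per library lay between 16300770 and 18254659. A list of 12 adipocyte markers was detected in full, with a summed level of 10740 to 17160 CPM (counts divided by the scaled size of the library). Of these, 7 mark brown adipocytes, led by Ucp1 with a mean of 2209 CPM and Cidea with 1837 CPM, and hold 33.4% of the summed means. The other 5, led by Fabp4 with 6049 CPM, are shared with white adipocytes, so the sum does not measure brown adipocytes alone. Transcripts of 15 skeletal muscle markers were also present and varied widely, from 4.57 to 8492 CPM, with 17 libraries under 1000 CPM and 15 at or above it. All 15 markers had their lowest mean at ZT6 and their highest at ZT15. Their sum had a median of 6.43 CPM at ZT6 (4.57 to 2048) and 3324 CPM at ZT15 (817.9 to 8492). Of the mice of ZT15, only replicate 4 was under 1000 CPM. Markers of sympathetic neurons were at or near 0: 7 of 8 had any count and their sum was at most 0.812 CPM. Sequencing lane 2 held the mice killed from ZT0 to ZT6, lane 3 those from ZT9 to ZT15, and lane 4 those from ZT18 onwards. Time points on different lanes can therefore not be told apart from lanes. The clock gene Dbp, a check of the sampling times, rose from 4.46 ± 0.802 CPM at ZT0 to 170.6 ± 42.7 CPM at ZT9 (SD, n = 4).

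Of the 9 genes, 7 oscillated over the day: Adrb3, Adcy3, Adcy6, Pde3b, Prkaca, Prkar1a and Prkar2b. These 7 passed the 24 h cosine test (edgeR's quasi-likelihood test, Benjamini-Hochberg adjusted p under 0.05), for which the background was 36.1% of all tested genes. The same 7 differed between the 8 time points (background 39.8%) and oscillated by JTK, a rank test against cosine templates, at P under 0.05 (background 36.4%) and after adjustment over all genes (background 27.1%). Adrb1 and Gnas passed none of these tests. The median cosine amplitude of the 9 genes was 0.15 on the log2 scale, beside 0.14 over all tested genes. All 7 had their fitted peak in the light phase, so 7 of 9 passed with a light-phase peak (background 18.4% of all tested genes). Among the 5602 tested genes that passed the cosine test, 2854 peaked in the light phase and 2748 in the dark phase. Adrb3 alone also had a fitted change of at least 2-fold (background 3.91%). With lane as a term in the cosine model, Adcy3, Prkaca and Prkar1a remained past the threshold (3 of 9, background 17.2%), and Adrb3 had an adjusted p of 0.12. In the 17 libraries under 1000 CPM of muscle transcripts the cosine test called Adrb3, Adcy3 and Prkaca (3 of 9, background 17.8%), whereas with muscle transcripts as a covariate in all libraries it called 7 (background 35.4%). In those 17 libraries the time point test called 2 (background 9.64%) and JTK 4 (background 20.6%), and with the covariate the time point test called 7 (background 39.4%). Over all 28 pairs of time points, 44 of 252 contrasts of these genes passed the threshold (17.5%), beside 8.86% over all genes and pairs. As the tissue was measured in bulk, fewer cells of a type and less RNA per cell cannot be told apart.

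Some markers of other cell types also passed the cosine test, part of them in the phase of the 6 genes that peaked between ZT6 and ZT11. Of 10 macrophage and leukocyte markers 5 passed the cosine test, with peaks from ZT5.1 to ZT8.73, among them Adgre1 (ZT7.46, adjusted p = 0.0087, edgeR) and Csf1r (ZT8.54, adjusted p = 0.013). Fewer of the 10 passed the other tests: 2 differed between time points (background 39.8%) and 2 passed JTK at P under 0.05 (background 36.4%). After adjustment JTK called 0 (background 27.1%), and beside lane the cosine called 1 (background 17.2%). Of 6 fibroblast and stroma markers 3 passed, with peaks from ZT7.29 (Pdgfra) to ZT7.6 (Col3a1), as did Pmp22 (ZT9.89) among 7 Schwann cell markers. Of the 6, 3 differed between time points, 3 passed JTK at P under 0.05, 1 passed JTK after adjustment and 2 passed beside lane. No Schwann cell marker passed beside lane. The summed macrophage and leukocyte markers had a median of 37.5 CPM at ZT0 (33.5 to 52.9), 70.6 CPM at ZT3 (50.02 to 80.9), 56.0 CPM at ZT9 (42.5 to 183) and 50.1 CPM at ZT18 (41.7 to 60.0). Those of fibroblasts and stroma had a median of 449 CPM at ZT0 (346.5 to 540.0), 775 CPM at ZT3 (612.7 to 974), 666 CPM at ZT9 (558.7 to 1049) and 523 CPM at ZT18 (473 to 693). Both sums were thus lowest in median at ZT0 and highest at ZT3, and all markers of these lists had counts. Endothelial markers that passed (4 of 8) lay mostly near the phase of Adrb3. Of the 8 endothelial markers, 6 differed between time points, 3 passed JTK after adjustment and 1 passed beside lane. Cldn5 peaked at ZT1.32 (3.22-fold, adjusted p = 9.0e-05, edgeR), Kdr at ZT23.8 (adjusted p = 9.9e-04) and Cdh5 at ZT3.01, each with its lowest mean at ZT12, while Vwf peaked at ZT11.42. Their list summed to a median of 1040 CPM at ZT0 (900.6 to 1135), 785 CPM at ZT12 (766 to 851) and 960.3 CPM at ZT15 (839.6 to 992). Of the remaining lists, 4 of 12 adipocyte, 3 of 5 white adipocyte and 3 of 6 lymph node markers passed, and none of 15 skeletal muscle or 6 blood markers (background 36.1%). The 4 adipocyte markers, Ucp1, Adipoq, Cidec and Plin1, peaked from ZT5.59 to ZT12.64. Summed over the 12, the median was 14750 CPM at ZT9 (12290 to 16670) and 12590 CPM at ZT18 (11380 to 13460). It was 14570 CPM at ZT0 and 12250 CPM at ZT3. The part of these cell types in the daily course of the 9 genes was not tested.

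**Figure D1:**
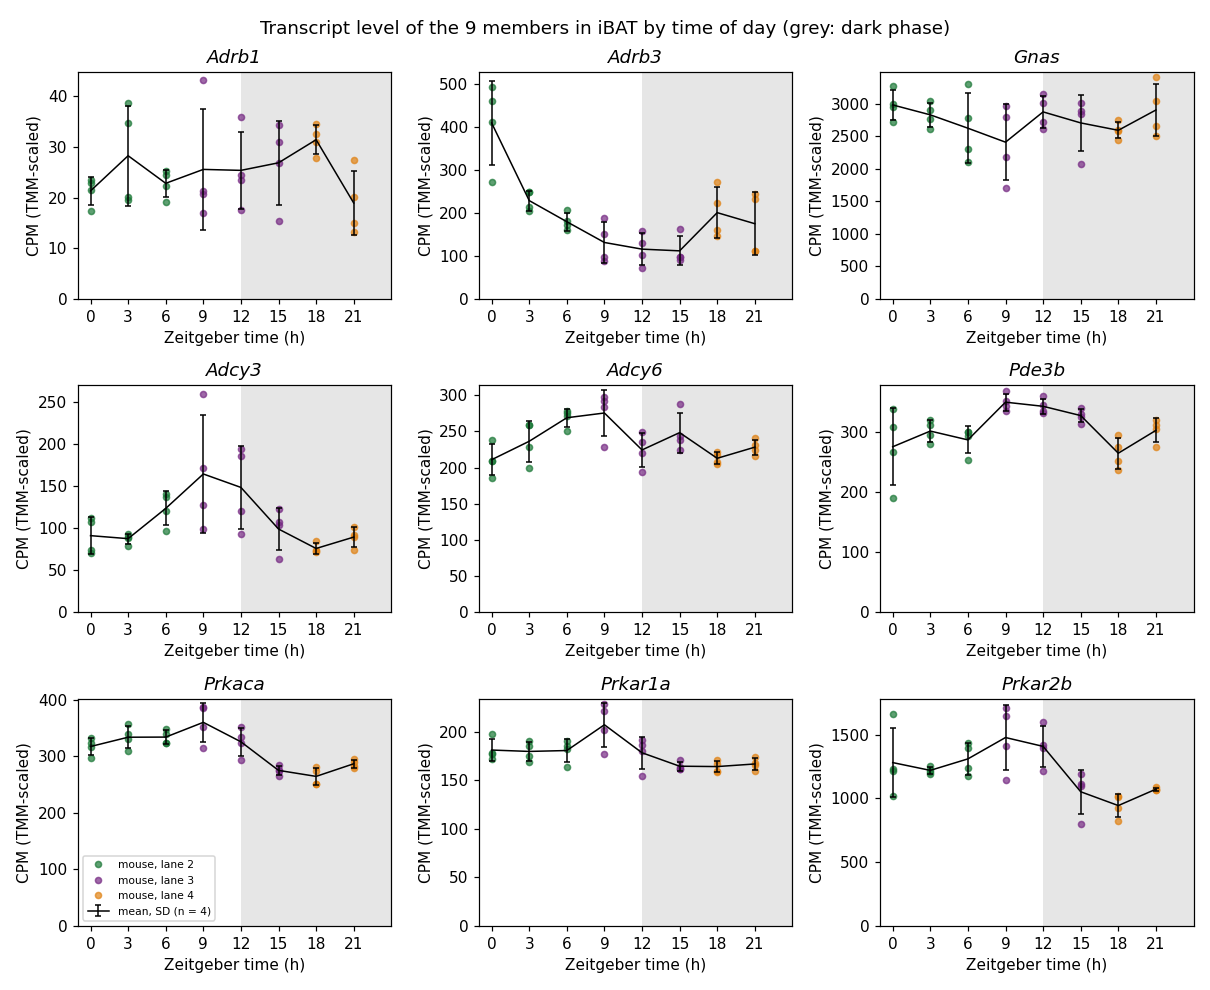
Level of the 9 transcripts in CPM after TMM scaling (vertical axes, starting at 0) against Zeitgeber time in hours. Points are mice coloured by sequencing lane, black lines join means, bars are SD (n = 4) and grey marks the dark phase. Adrb3 was highest at ZT0, and both cyclases, Pde3b and the 3 PKA subunits had their highest mean at ZT9.

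Adrb3 encodes the β3-adrenergic receptor, the main β receptor of rodent adipocytes, and it had the widest swing of the 9 genes. At ZT0 the 4 mice had 461, 493, 273 and 413 CPM. At ZT3 they had 249, 214, 249 and 205 CPM, and at ZT6 180, 208, 171 and 160 CPM. The mice of ZT3 and ZT6 all lay below those of ZT0, whereas ZT3 and ZT6 overlapped and did not differ beyond the spread (adjusted p = 0.62, edgeR). The trough lay around the onset of darkness. At ZT12 the mice had 103, 158, 71.6 and 131 CPM, and at ZT15 90.1, 98.5, 97.0 and 162 CPM. All 8 of these mice lay below all 4 mice of ZT0. Later in the dark phase the spread was wide, with 160, 146, 225 and 273 CPM at ZT18 and 112, 112, 234 and 243 CPM at ZT21, where the mice fell into a low and a high pair.

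The mean of Adrb3 was 409.9 ± 97.1 CPM at ZT0 and 111.9 ± 33.7 CPM at ZT15 (SD, n = 4). The log2 fold change of ZT15 against ZT0 was -1.87 ± 0.29 (SE, adjusted p = 1.2e-04, edgeR). Every other time point was also below ZT0, with adjusted p between 8.3e-05 (ZT12) and 0.049 (ZT18). Part of this lay within lane 2: ZT3 was lower than ZT0 by a log2 fold change of -0.84 ± 0.28 (adjusted p = 0.045) and ZT6 by -1.19 ± 0.28 (adjusted p = 0.0047). In a fit of lane 2 alone, Adrb3 was the only one of the 9 genes to differ (adjusted p = 0.0021, background 12.7%). The cosine had an amplitude of 0.72 ± 0.12 (log2, SE), a 2.73-fold change from trough to peak, and a peak at ZT0.48 ± 0.64 h. In the order of the means, ZT0 and ZT3 were the only neighbours past the threshold. ZT3, ZT18, ZT6, ZT21, ZT9, ZT12 and ZT15 followed each other without a difference between neighbours beyond the spread.

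Exons of Adrb3 (GRCm38, chromosome 8, 27225776 to 27250616, minus strand) share 24.9% of their bases with the antisense gene Gm45470. Its count was between 7.27% of that of Adrb3 at ZT0 and 19.2% at ZT15. Whether the counting used the strand was not stated, so some reads of either gene could be assigned to the other. Gm45470 had 29.4 ± 7.35 CPM at ZT0 (SD, n = 4). Its mean was 16.8 ± 0.53 CPM at ZT3 but 29.8 ± 6.62 CPM at ZT6. The means of both genes were thus lower at ZT3 than at ZT0, with Gm45470 at 7.27% and 7.42% of the count of Adrb3, whereas at ZT6 Gm45470 was back near its level of ZT0 and Adrb3 was not. Gm45470 itself passed the cosine test (adjusted p = 0.037, edgeR), with a peak at ZT22.44 near that of Adrb3.

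Adrb1 encodes the β1-adrenergic receptor and was the lowest of the 9 transcripts. Its 4 mice had 21.6, 23.5, 22.9 and 17.3 CPM at ZT0. They had 27.7, 32.5, 34.4 and 31.0 CPM at ZT18, and 15.0, 27.4, 13.1 and 20.1 CPM at ZT21. ZT18 and ZT21 had the highest and the lowest mean, and their mice did not overlap. Across all 8 time points the difference did not pass the threshold (adjusted p = 0.32, edgeR), nor did the cosine (adjusted p = 0.61), with an amplitude of 0.12 ± 0.11 (log2, SE). None of its 28 contrasts passed. Within time points the coefficient of variation was 29.3%, near that of Adrb3 (28.2%).

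Because both receptors lie on the same per-length scale, their ratio can be followed in each mouse. Per kilobase of exon, Adrb3 exceeded Adrb1 by 4.24 ± 0.45 on the log2 scale at ZT0 (SD, n = 4), an 18.9-fold ratio. The log2 ratio was 2.08 ± 0.58 at ZT15, a 4.24-fold ratio. The lowest mouse of ZT0 had 3.58 and the highest of ZT15 had 2.60, so the groups did not overlap. They were picked as the time points with the highest and lowest mean ratio and lie on different lanes. ZT21 spanned 2.04 to 4.16. The ratio was above 0 in every mouse at every time point, hence Adrb3 was always the more abundant of the pair per length.

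**Figure D2:**
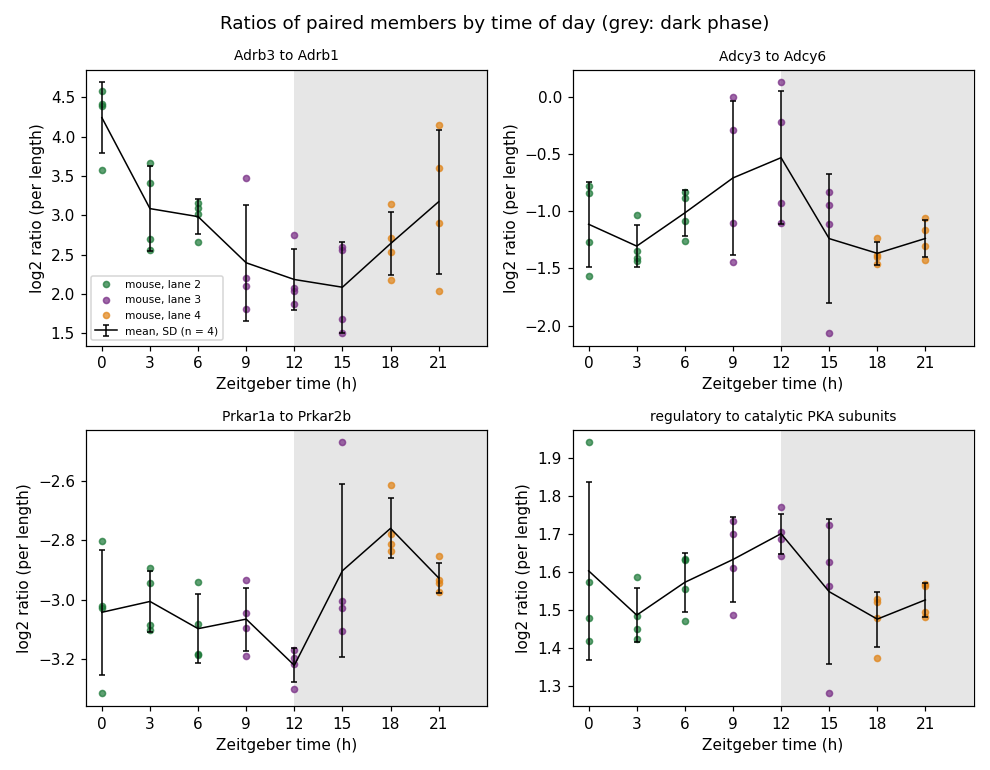
Log2 ratio of per-length levels of paired genes (vertical axes) against Zeitgeber time in hours, for Adrb3 to Adrb1, Adcy3 to Adcy6, Prkar1a to Prkar2b and summed regulatory subunits (Prkar1a and Prkar2b) to Prkaca. Points are mice coloured by lane, lines join means with SD (n = 4). The receptor ratio spans 4.24 at ZT0 to 2.08 at ZT15, whereas the means of the regulatory to catalytic ratio lie between 1.48 and 1.70.

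Gnas encodes the α subunit of the stimulatory G protein and other products from the same imprinted locus, which the gene-level count adds up. It was abundant and passed none of the tests over the day. The mice had 3280, 2948, 2993 and 2717 CPM at ZT0, the highest mean, and 1706, 2970, 2179 and 2791 CPM at ZT9, the lowest. These groups overlapped. The adjusted p was 0.52 between the 8 time points and 0.43 for the cosine (edgeR), with an amplitude of 0.09 ± 0.05 (log2, SE). No contrast between time points passed. Variation within time points was 13.7%.

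Adenylyl cyclases synthesise cAMP, and both of those described here peaked in the light phase. Adcy3, a cyclase known to be induced in thermogenic fat, had 72.7, 72.4, 74.2 and 85.2 CPM in the mice of ZT18. At ZT3 it had 90.2, 79.3, 88.3 and 93.5 CPM, and at ZT9 172, 261, 99.1 and 128 CPM. All mice of ZT9 lay above those of ZT3 and ZT18, but they were widely spread. Mean Adcy3 was 164.8 ± 70.4 CPM at ZT9, falling to 76.1 ± 6.11 CPM at ZT18 (SD, n = 4), with a log2 fold change of -1.11 ± 0.24 for ZT18 against ZT9 (SE, adjusted p = 0.0023, edgeR). Contrasts of ZT9 and ZT12 with ZT0, ZT3 and ZT18 passed, as did those of ZT21 with ZT9 and of ZT18 with ZT6, and none of these 8 lay within a lane. The cosine peaked at ZT9.27 ± 0.79 h with an amplitude of 0.44 ± 0.09 (log2, SE) and remained past the threshold beside lane (adjusted p = 0.047). Exons of Adcy3 share 22.1% of their bases with Cenpo on the opposite strand, whose count was 4.48% to 8.78% of that of Adcy3.

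Adcy6, a calcium-inhibited cyclase, changed less. It had 210, 186, 210 and 238 CPM at ZT0, 278, 251, 276 and 271 CPM at ZT6, and 228, 284, 292 and 298 CPM at ZT9. All mice of ZT6 lay above all mice of ZT0, a contrast within lane 2, with a log2 fold change of 0.35 ± 0.09 (SE, adjusted p = 0.011, edgeR). ZT9 was also above ZT0 (0.39 ± 0.09, adjusted p = 0.0053), and ZT18 was below both ZT6 and ZT9. The cosine amplitude of 0.14 ± 0.04 (log2, SE), a 1.22-fold change, peaked at ZT8.32 ± 1.02 h. Per length, Adcy6 was more abundant than Adcy3 at every time point mean. The log2 ratio of Adcy3 to Adcy6 was -1.37 ± 0.10 at ZT18 and -0.53 ± 0.58 at ZT12 (SD, n = 4), and 1 mouse of ZT12 reached 0.13.

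Pde3b encodes the main insulin-stimulated phosphodiesterase of adipocytes, which lowers cAMP. Its 4 mice had 352, 343, 336 and 369 CPM at ZT9 and 335, 345, 360 and 332 CPM at ZT12. At ZT18 they had 237, 252, 276 and 295 CPM. All mice of ZT9 and ZT12 lay above all mice of ZT18, whereas those of ZT0, from 189.5 to 338 CPM, overlapped all 3 of these groups. Means of 349.7 ± 14.3 CPM (ZT9) and 264.8 ± 25.8 CPM (ZT18) resulted (SD, n = 4). The log2 fold change of ZT18 against ZT9 was -0.40 ± 0.11 (SE, adjusted p = 0.011, edgeR). All 4 of its contrasts that passed lay between lanes. Its cosine amplitude was 0.15 ± 0.04 (log2, SE), with a peak at ZT10.85 ± 1.08 h. Beside lane the adjusted p was 0.34, and without the 5 libraries over 10 times the median of muscle transcripts it was 0.058.

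The 3 PKA subunits moved together in time. Prkaca encodes the catalytic subunit Cα, Prkar1a the type Iα regulatory subunit and Prkar2b the type IIβ regulatory subunit, which is the prevailing regulatory form in adipose tissue. All 3 were highest at ZT9 and lowest at ZT18, and each fell within lane 3 between ZT9 and ZT15.

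Promoter windows of these subunits and of Adcy3 are shown because the 4 genes had their highest mean at ZT9 and their lowest at ZT18. They also varied together between mice, although the relations of Prkar1a rested on a few libraries. Each window is taken from RefSeq (GRCm38.p6), runs from 250 bases before to 50 bases after an annotated start site, and is the entry nearest to the 5′ end of the gene in the annotation. Of the 9 genes, 6 have an entry in that table, Adrb3, Adcy6 and Pde3b being those without. Prkar1a has 6 entries and Prkaca, Prkar2b and Adcy3 have 2 each, and only the nearest entry of each gene was searched. Positions are chr8:83972728-83973027 (plus strand) for Prkaca, chr11:109649113-109649412 (plus strand) for Prkar1a, chr12:32061228-32061527 (minus strand) for Prkar2b and chr12:4133147-4133446 (plus strand) for Adcy3. Sequences are written 5′ to 3′, and capitals mark CACGTG, the E-box bound by clock factors, and TGACG, the core of the cAMP response element, on either strand (CGTCA on the other).
Prkaca: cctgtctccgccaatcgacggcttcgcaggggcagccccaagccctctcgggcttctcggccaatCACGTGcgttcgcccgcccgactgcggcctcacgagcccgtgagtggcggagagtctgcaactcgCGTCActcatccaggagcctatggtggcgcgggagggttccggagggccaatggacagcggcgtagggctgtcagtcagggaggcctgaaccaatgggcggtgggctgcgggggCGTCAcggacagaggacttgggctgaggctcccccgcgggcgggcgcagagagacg
Prkar1a: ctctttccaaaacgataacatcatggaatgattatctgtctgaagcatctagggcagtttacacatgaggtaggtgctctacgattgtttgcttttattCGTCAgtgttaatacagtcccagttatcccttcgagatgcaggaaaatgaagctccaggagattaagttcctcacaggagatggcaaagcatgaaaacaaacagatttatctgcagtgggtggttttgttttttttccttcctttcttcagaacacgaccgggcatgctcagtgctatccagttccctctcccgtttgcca
Prkar2b: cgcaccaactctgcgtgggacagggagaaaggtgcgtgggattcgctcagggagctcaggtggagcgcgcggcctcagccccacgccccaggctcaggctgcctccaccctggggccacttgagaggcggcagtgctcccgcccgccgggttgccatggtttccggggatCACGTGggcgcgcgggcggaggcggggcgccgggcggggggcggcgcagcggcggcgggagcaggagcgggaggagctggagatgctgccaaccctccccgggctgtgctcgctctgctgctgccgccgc
Adcy3: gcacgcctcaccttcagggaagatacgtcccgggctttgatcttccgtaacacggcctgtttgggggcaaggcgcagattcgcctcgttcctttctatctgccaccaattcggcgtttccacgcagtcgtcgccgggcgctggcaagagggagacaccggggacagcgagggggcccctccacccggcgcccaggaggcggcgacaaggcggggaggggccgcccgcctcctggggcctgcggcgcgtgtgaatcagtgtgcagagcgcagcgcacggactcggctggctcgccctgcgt

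The E-box stood at position -185 in Prkaca and at position -80 in Prkar2b, counted from the start site as 0, and was not found in the windows of Prkar1a or Adcy3. Of 32851 promoters of this length, 7.15% hold it. TGACG stood at positions -120 and -6 in Prkaca and at -151 in Prkar1a, as it does at some position in 20.8% of all promoters. The full cAMP response element TGACGTCA, which starts with TGACG and is held by 1.79% of promoters, and the D-box TTATGTAA, held by 0.938%, were in none of the 4 windows. The GC content was 69.7% for Prkaca, 43.3% for Prkar1a, 75.0% for Prkar2b and 68.7% for Adcy3, beside a median of 52.7% over all promoters. A match describes these letters only.

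Prkaca had the tightest replicates of the 9 genes, with a variation within time points of 6.11%. The mice had 387, 386, 315 and 352 CPM at ZT9. At ZT15 they had 265, 275, 276 and 284 CPM, and at ZT18 251, 252, 281 and 274 CPM. Neither of these later groups overlapped with ZT9. The log2 fold change was -0.39 ± 0.07 for ZT15 against ZT9 (SE, adjusted p = 5.1e-04, edgeR) and -0.24 ± 0.07 for ZT15 against ZT12 (adjusted p = 0.039), both within lane 3. For ZT18 against ZT9 it was -0.45 ± 0.07 (adjusted p = 4.5e-05). In total 11 of 28 contrasts passed, the most of any of the 9 genes, and each set ZT15, ZT18 or ZT21 below an earlier time point. The levels of ZT0, ZT3, ZT6 and ZT12 lay between 317.2 and 333.9 CPM and no contrast between them passed. The cosine peaked at ZT6.34 ± 0.47 h with an amplitude of 0.19 ± 0.02 (log2, SE), a 1.30-fold change, and had the lowest adjusted p of the 9 genes both without lane (4.4e-06) and beside it (4.2e-04).

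Prkar2b was the most abundant of the 3 PKA subunit transcripts per length. Its mice had 1707, 1648, 1145 and 1407 CPM at ZT9. They had 801, 1194, 1116 and 1095 CPM at ZT15 and 821, 926, 1008 and 1018 CPM at ZT18. All mice of ZT18 lay below all mice of ZT9, while replicate 3 of ZT9 and replicate 2 of ZT15 overlapped. The mean fell from 1477 ± 256.4 CPM at ZT9 to 943 ± 91.3 CPM at ZT18 (SD, n = 4), with a log2 fold change of -0.65 ± 0.13 (SE, adjusted p = 0.0012, edgeR). Within lane 3, ZT15 was below ZT9 by -0.49 ± 0.13 (adjusted p = 0.019). ZT21 was nearly constant among mice, from 1062 to 1087 CPM, and lay below ZT9 (adjusted p = 0.023).

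Prkar1a changed least among the genes that oscillated. It had 222, 228, 177 and 202 CPM at ZT9 and 171, 164, 162 and 161 CPM at ZT15. At ZT18 the mice had 159, 160, 167 and 171 CPM. The 3 contrasts that passed set ZT15, ZT18 and ZT21 below ZT9, with log2 fold changes of -0.33, -0.34 and -0.31. That of ZT15, within lane 3, had an adjusted p of 0.0049 (edgeR). At the remaining time points of the light phase and at ZT12 the mean lay between 178.4 and 181.2 CPM, without a difference between neighbours. Its cosine amplitude was 0.11 ± 0.03 (log2, SE), a 1.17-fold change, with a peak at ZT6.86 ± 0.92 h.

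The ratio of regulatory to catalytic transcripts ran from 1.28 to 1.94 in single mice on the log2 scale. Summed per length, Prkar1a and Prkar2b exceeded Prkaca by 1.70 ± 0.05 on the log2 scale at ZT12, the highest mean, and by 1.48 ± 0.07 at ZT18, the lowest (SD, n = 4), which are ratios of 3.25 and 2.78. The lowest mouse of ZT12 had 1.64 and the highest of ZT18 had 1.53, so these groups did not overlap. Within the regulatory pair, the log2 ratio of Prkar1a to Prkar2b was -3.22 ± 0.06 at ZT12 and -2.76 ± 0.10 at ZT18. Here too the mice of these time points did not overlap, so Prkar2b held a smaller part of the regulatory transcripts at ZT18. These ratios are given without a test.

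Pairs of time points were then contrasted. Against ZT0, the count of genes past the threshold (of 9) was 1 at ZT3 (background 13.8%), 2 at ZT6 (17.3%), 4 at ZT9 (19.2%), 3 at ZT12 (15.9%), 2 at ZT15 (9.79%), 2 at ZT18 (2.26%) and 1 at ZT21 (7.72%), and Adrb3 was among them each time. The remaining contrasts were led by the fall from ZT9. Against ZT9, no gene passed at ZT12 (0.0%), 3 at ZT15 (7.82%), 6 at ZT18 (15.3%) and 4 at ZT21 (9.62%). The 6 at ZT18 were both cyclases, Pde3b and all PKA subunits. Against ZT12, 1 passed at ZT15 (3.04%), 4 at ZT18 (8.13%) and 0 at ZT21 (8.86%). Against ZT6, 0 passed at ZT9 (1.95%), 0 at ZT12 (7.93%), 1 at ZT15 (16.0%), 4 at ZT18 (16.9%) and 0 at ZT21 (3.52%). Against ZT3, 0 passed at ZT6 (2.08%), 1 at ZT9 (6.04%), 2 at ZT12 (10.8%), 2 at ZT15 (14.2%), 1 at ZT18 (12.3%) and 0 at ZT21 (4.74%). Among ZT15, ZT18 and ZT21 none passed, with backgrounds of 1.17% for ZT18 and 9.69% for ZT21 against ZT15 and 2.06% for ZT21 against ZT18.

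When each lane was fitted alone, 1 of the 9 genes differed between time points in lane 2, and none in lane 3 (background 1.75%) or lane 4 (background 4.06%, edgeR, adjusted p under 0.05). At an unadjusted p under 0.05 the counts were 3 in lane 2 (background 31.5%), 3 in lane 3 (Prkaca, Prkar1a and Prkar2b, background 15.6%) and 4 in lane 4 (Adrb1, Adcy3, Pde3b and Prkar2b, background 19.9%). The differences of the 3 PKA genes between ZT9 and ZT15 reported above came from the fit of all 32 libraries.

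**Figure D3:**
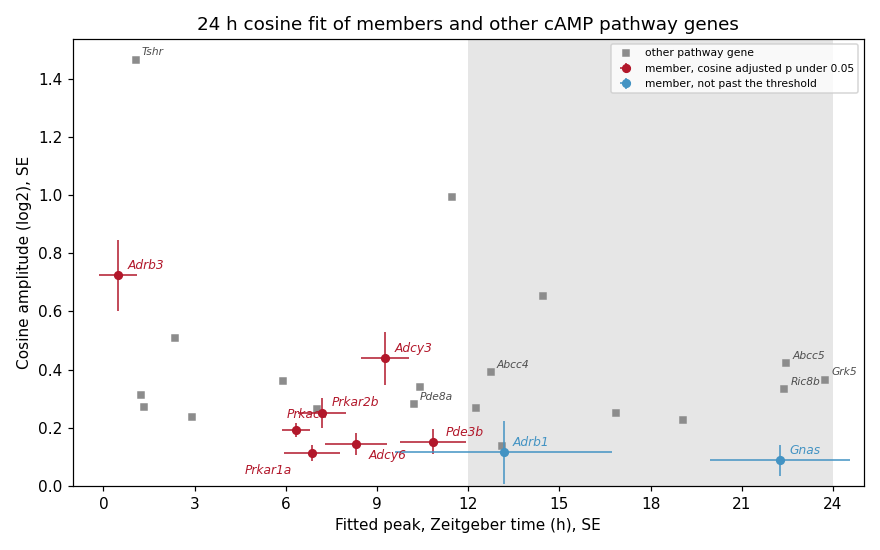
Cosine amplitude on the log2 scale (vertical axis) against fitted peak in Zeitgeber hours (horizontal axis). Red points are the 7 genes past the threshold and blue points Adrb1 and Gnas, with SE in both directions, and grey squares are other pathway genes with the lowest adjusted p. Adrb3 stands at ZT0.48 with 0.72, while the other 6 oscillating genes lie between ZT6.34 and ZT10.85.

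Levels between genes were compared per kilobase of exon length. The means over 32 mice were 334 CPM per kb for Prkar2b, 245 for Gnas, 125 for Prkaca, 57.5 for Adrb3, 41.2 for Prkar1a, 35.1 for Adcy6, 33.6 for Pde3b, 17.7 for Adcy3 and 7.41 for Adrb1. Adcy3 exceeded Adrb1 in all 32 mice. Adrb3 and Prkar1a were not ordered in the same way in every mouse, with Adrb3 above in 22. Adcy6 and Pde3b were near each other, with Adcy6 above in 19 of 32 mice. The exon length of Gnas, 11186 bases, covers all its products, and its level per length is lower than that of a single product would be. Gnas is therefore not ranked against Prkar2b, above which it lay in 31 of 32 mice in CPM without division by length. In the order of time points within a gene, 1 of 63 neighbouring positions passed the threshold, ZT0 over ZT3 for Adrb3.

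**Figure D4:**
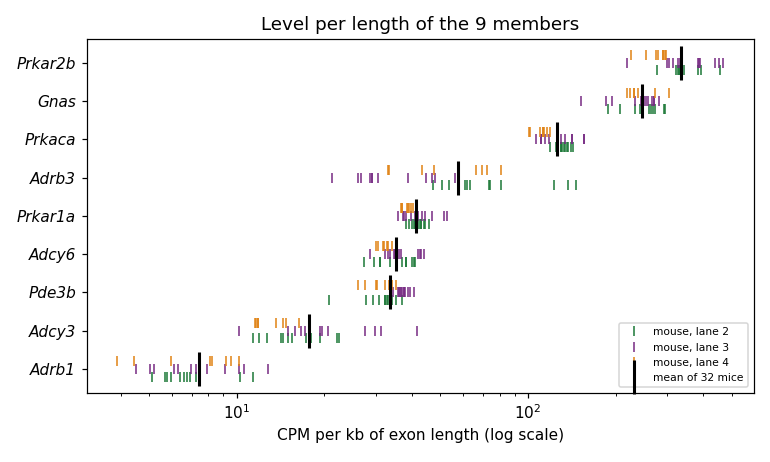
Level of each transcript in CPM per kb of exon length (horizontal axis, log scale) in 32 mice, with ticks coloured by lane and a black bar at the mean. Means run from 7.41 for Adrb1 to 334 for Prkar2b, Gnas is divided by the length of all its products together, and Adrb3 covers the widest range on the log axis, from 21.2 to 145.9.

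Whether the genes also vary together between mice of the same time point was examined on deviations of log2 CPM from the time point mean. Of 36 relations, 6 passed (two-sided permutation of mice within time points, 100000 resamples, adjusted over 36), all positive and all among Adcy3, Prkaca, Prkar1a and Prkar2b. All 6 were positive in each of the 3 lanes. Prkaca and Prkar2b had a Pearson r of 0.73 (permutation p = 6e-05, adjusted p = 0.0022) and a Spearman rho of 0.74 (permutation p = 1.3e-04, adjusted p = 0.0047). When replicate 3 of ZT9 and replicate 4 of ZT12, which lay farthest from the median of Prkaca, were left out, r was 0.65. Within lanes r was 0.54 in lane 2, 0.85 in lane 3 and 0.75 in lane 4 (exact permutation p = 0.085, 0.0013 and 0.23).

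Adcy3 and Prkar2b had an r of 0.76 (permutation p = 1.3e-04, adjusted p = 0.0023) and a rho of 0.70 (permutation p = 4.5e-04), and r was 0.73 without replicates 2 and 3 of ZT9. Lane 4 gave 0.21 for this pair, beside 0.74 in lane 2 and 0.85 in lane 3. The 3 relations of Prkar1a with Prkaca, Prkar2b and Adcy3 rested on a few libraries: their adjusted p was 0.083, 0.10 and 0.19 when the 2 farthest were left out. In the same setting Gnas with Adcy3 (r = 0.63) and Gnas with Prkar2b (r = 0.51) passed. Adrb3 had no relation past the threshold with any other gene of the 9, and its r with Prkaca was 0.20 (permutation p = 0.37, rho 0.20, permutation p = 0.35). All relations share the scaling of a library.

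**Figure D5:**
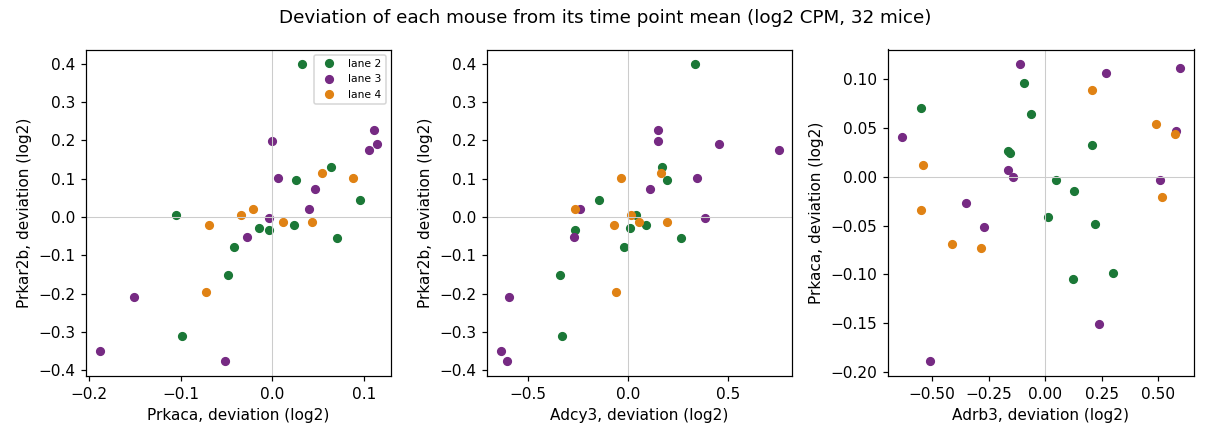
Deviation of each of 32 mice from its time point mean in log2 CPM for Prkar2b against Prkaca, Prkar2b against Adcy3 and Prkaca against Adrb3, with points coloured by lane. The first 2 panels rise from lower left to upper right (r = 0.73 and 0.76), the third does not (r = 0.20).

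Summed marker transcripts moved with some of these deviations. In 90 relations of the 9 genes with 10 marker lists, 10 passed after adjustment. Adcy3 rose with the adipocyte markers (r = 0.79, permutation p = 7e-05, rho 0.75, permutation p = 1.6e-04) and was lower where the macrophage and leukocyte markers were higher (r = -0.70, permutation p = 5.2e-04, rho -0.61, permutation p = 9.1e-04). Without the 2 farthest libraries these were 0.72 and -0.57. Prkar2b (r = 0.65), Prkaca (r = 0.62) and Gnas (r = 0.66) also rose with the adipocyte markers, with adjusted permutation p between 0.021 and 0.029. The white adipocyte markers were negatively related to Adcy3 (r = -0.69, permutation p = 0.0019, rho -0.57), Prkar2b (r = -0.62, permutation p = 0.0054, rho -0.61) and Prkar1a (r = -0.60, permutation p = 0.0051, rho -0.53), with adjusted p between 0.029 and 0.049. The last was the only relation of Prkar1a with a marker list that passed. Negative relations were also found for Adcy3 with the fibroblast and stroma markers (r = -0.57, permutation p = 0.0031, adjusted p = 0.040) and for Prkar2b with the macrophage and leukocyte markers (r = -0.59, permutation p = 0.0041, adjusted p = 0.046). All 10 relations had the same sign in each lane except, in lane 4, Adcy3 with the white adipocyte markers (r = 0.06) and Prkar2b with the macrophage and leukocyte markers (r = 0.11). Replicate 3 of ZT9, the mouse lowest in Adcy3, Prkaca, Prkar1a and Prkar2b at its time point, had 183 CPM of the macrophage and leukocyte list, the highest of all libraries. The part of these markers in the levels was not tested. Leaving out this library and replicate 1 of ZT15 together still gave 7 genes by the cosine, the time point test and JTK.

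Genes with the most similar course over the 32 libraries were sought among 8526 genes with a mean of at least 10 CPM. For Adcy3 they were Acsl1 (r = 0.92), a fatty acid activating enzyme, Tecpr1 (r = 0.91) and Crat (r = 0.91), carnitine acetyltransferase. Acsl1 was also nearest to Prkar2b (r = 0.90), followed by Nr2c1 (r = 0.87) and Prkaca (r = 0.87). Prkaca was nearest to Tmem94 (r = 0.93), Dazap2 (r = 0.91) and Atat1 (r = 0.91). For Prkar1a the nearest gene was Prkaca itself (r = 0.83). Adcy6 was nearest to Evi5l (r = 0.82) and to Ppara (r = 0.82), a nuclear receptor of fatty acid oxidation. Pde3b was nearest to Msi2 (r = 0.83), and Prkacb, the β catalytic subunit of PKA, was also among its nearest (r = 0.79). For Adrb3 the nearest were Fnta (r = 0.80), S100a10 (r = 0.79) and Ankef1 (r = 0.79). The values for Adrb1 (Tob1, r = 0.72) and Gnas (Cib2, r = 0.68) were lower. The points share library, depth and time point, and r is given as a description.

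Other genes of the pathway were taken from 12 lists of 132 genes, of which 115 were tested. The cosine test called 58 of them, 37 with a peak in the light phase and 21 in the dark phase, beside the background of 36.1%. Beside lane, 25 passed (background 17.2%), of which 21 were among the 58. Their median amplitude was 0.21 (log2), beside 0.14 over all tested genes. The list of other receptors had 10 of 17 tested genes called. Tshr, the thyrotropin receptor, had the largest amplitude of the pathway genes named by rule, with 25.1 ± 3.60 CPM at ZT3 and 2.98 ± 0.50 CPM at ZT15 (SD, n = 4), a 7.62-fold fitted change with a peak at ZT1.06 (adjusted p = 8.0e-12, edgeR). Like Adrb3, it peaked near lights on. Mc2r, the corticotropin receptor, followed at ZT2.34 (2.02-fold). Adora1, the inhibitory adenosine A1 receptor, peaked at ZT10.42 with 210.8 ± 35.4 CPM at ZT9. Npy1r peaked at ZT14.47 (2.47-fold, 3.21 ± 1.09 CPM at ZT12).

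The desensitisation list had 5 of 8 called (62.5%, background 36.1%): Grk5, Arrb1, Grk3, Rgs2 and Grk2. Rgs2 and Grk2 passed narrowly (adjusted p = 0.047 and 0.048, edgeR) and did not pass JTK after adjustment (adjusted P = 0.087 and 0.31). Beside lane 1 of 8 passed, Grk5 (adjusted p = 0.0060, background 17.2%). The receptor kinases Grk5 and Grk3 and β-arrestin 1 (Arrb1) had their lowest mean at ZT15, as did Adrb3, and peaked at ZT23.74, ZT1.23 and ZT1.32. The kinase Grk2 was lowest at ZT6 and peaked at ZT18.68, and Rgs2 was lowest at ZT9. Grk3 went from 129.2 ± 34.4 CPM at ZT15 to 225.2 ± 41.2 CPM at ZT0. Rgs2, an inhibitor of G protein signalling, peaked at ZT22.89 with 271.6 ± 23.3 CPM at ZT21.

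Among other G protein genes 7 of 16 tested were called (43.8%, near the background of 36.1%). Ric8b, a chaperone of the stimulatory α subunit, peaked at ZT22.39 with 61.6 ± 1.62 CPM at ZT0 against 33.7 ± 3.19 CPM at ZT12 (adjusted p = 1.2e-07, edgeR), while Gnas itself had an adjusted p of 0.43. The inhibitory subunits Gnai2 and Gnai1 peaked at ZT8.77 and ZT4.53. Of 7 other cyclases tested, Adcy5 and Adcy9 passed (28.6%, below the background), with peaks at ZT3.06 and ZT8.59. Of 13 other phosphodiesterases 10 passed (76.9%). Pde8a peaked at ZT10.2 with 108.1 ± 9.90 CPM at ZT9 against 69.9 ± 6.49 CPM at ZT0 (adjusted p = 9.1e-07), close in time to Pde3b. Pde4a peaked at ZT2.92, Pde1b at ZT5.89 and Pde1a at ZT12.24, so the enzymes that break down cAMP and cGMP did not share a single phase. The 2 cAMP exporters lay on opposite sides of the day, with peaks at ZT12.74 for Abcc4 and ZT22.46 for Abcc5.

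Of 5 other PKA subunit and inhibitor genes tested, 2 passed, near the background of 36.1%: the regulatory subunit Prkar2a peaked at ZT15.94 and the inhibitor Pkig at ZT11.59. Prkacb, at 80.7 CPM beside 312.1 CPM for Prkaca, did not pass (adjusted p = 0.12, edgeR). The downstream list had 5 of 7 called. It includes Pnpla2, adipose triglyceride lipase, with 3122 ± 82.2 CPM at ZT12 against 2495 ± 116.8 CPM at ZT6 (SD, n = 4), and Plin1, the lipid droplet protein that PKA phosphorylates, which peaked at ZT5.59. Mapkapk2 and Mapk14 peaked at ZT7.02 and ZT19.07, and Atf2 at ZT11.8. Lipe, hormone-sensitive lipase, did not pass (adjusted p = 0.26). Of 14 cAMP-responsive transcripts 8 passed (57.1%), a list that includes Adrb3 and Pde3b themselves, and beside lane Per1 alone of these 8 stayed past the threshold, while Ppargc1a passed there but not without lane (2 of 14, background 17.2%). The 8 that passed had their highest mean at ZT0 (Adrb3), ZT3 (Sik1, Nr4a3 and Pde4b), ZT9 (Ucp1 and Pde3b), ZT12 (Per1) and ZT18 (Crem). Mice of ZT3 were widely spread in Nr4a3 (9.79 ± 13.2 CPM, SD, n = 4). Ucp1, the uncoupling protein of brown fat, went from 1275 ± 334.0 CPM at ZT18 to 2973 ± 959.6 CPM at ZT9 (SD, n = 4). Per1, a clock gene as well as a cAMP target, peaked at ZT11.47 (3.96-fold).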

How the data were processed

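Total RNA of iBAT was sequenced as stranded paired-end libraries. Per the labels and methods, the authors mapped reads to the mouse genome (mm10) with GSNAP and counted them per Ensembl gene with HTSeq (0.6.1). The deposited values are raw counts, and the strand setting of counting is not given in the sources used here. Lengths and coordinates follow GRCm38 (GENCODE). Genes were filtered with filterByExpr by time point (15505 genes, 99.9% of counts), scaled with TMM and tested with edgeR 4.0.16 (R 4.3.3) by quasi-likelihood tests with Benjamini-Hochberg adjustment over all tested genes and a threshold of 0.05. The tests were a 24 h cosine, the 8 time points, 28 pairs of time points, and each lane alone. Amplitudes come from log2 CPM with a prior count of 2. JTK was an own implementation with templates of 21 and 24 h. The fits were checked on simulated data. Mice were taken as replicates as labelled. Per the methods, iBAT came from separate mice, and no same-time pair of libraries agreed within counting noise (lowest mean chi-square per gene 8.02 over 48 pairs). Intervals and p-values cover the spread between mice. The members and gene lists were chosen with earlier results of these data known. Named pathway genes are the 20 with the lowest cosine adjusted p and a mean of at least 1 CPM, and genes needed for a count of 5 or fewer, and 1 of the 20 is not reported here. Beyond this rule, Gnai2, Gnai1, Prkacb, Lipe, the cAMP-responsive transcripts other than Per1, the cell type markers and the genes of the closing section were named after their values were seen. Alternatives included DESeq2 1.42.0, other scaling and filters, left-out libraries, lane, muscle transcripts and a replicate block. Relations with marker lists were added after the data were seen.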

Additional observations from a re-analysis of the deposited data

Results flagged for a closer look

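Of 72 groups of 4 mice (9 genes at 8 time points), 4 held a mouse set apart from the other mice, where chance gives about 1 in 20 groups, or 3.6. Replicate 2 of ZT9 had 43.3 CPM of Adrb1, with the others between 17.0 and 21.3 CPM. Replicate 4 of ZT15 had 162 CPM of Adrb3, with the others between 90.1 and 98.5 CPM. Replicate 4 of ZT18 had 85.2 CPM of Adcy3, with the others between 72.4 and 74.2 CPM. Replicate 4 of ZT6 had 253.6 CPM of Pde3b, with the others between 293.9 and 300.8 CPM.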

How the results depend on the processing

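The counts of 7 genes by the cosine, the time point test and JTK were 7 to 7 over the fits that left out each library in turn, and the same genes were called in each of them. DESeq2 size factors, library size, removal of mitochondrially encoded genes, both other filters, DESeq2's likelihood ratio test (cosine and time points), a 24 h template (JTK) and a muscle covariate (cosine and time points) also gave 7. Without the 5 libraries over 10 times the median of muscle transcripts the cosine gave 6 and the other tests 7. The share of all tested genes called in these fits is not given here, so the counts compare the 9 genes only with their main fit. With lane as an additive factor the cosine gave 3. In libraries under 1000 CPM of muscle transcripts, a limit chosen after seeing the data that leaves 17 libraries, the cosine gave 3, the time point test 2 (background 9.64%) and JTK 4 (background 20.6%). Lane 2 alone gave 1, lane 3 alone 0 and lane 4 alone 0, with fewer samples. The pair contrasts gave 29 in place of 44 when fitted on the 8 libraries of a pair, 47 with library size alone and 44 with DESeq2 size factors. The 6 relations between genes became 6 by Spearman (of which 5 were among the 6), 5 without the 2 libraries farthest from the median (3 among the 6), and 0, 2 and 0 in lanes 2, 3 and 4 alone. With a replicate block the cosine gave 7 and the time point test 7. The numbers do not pair the mice: same-numbered libraries had a mean correlation of -0.033, and 4 of 32 libraries correlated best with their own number. Depth was not limiting for the 9 genes, whose lowest count in a library was 236 (Adrb1).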

Other observations

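The CREB family and its co-activators, through which PKA reaches transcription, had 7 of 14 genes past the cosine threshold (edgeR, adjusted p under 0.05), beside a background of 36.1% of all tested genes. With lane as a term none of these 7 stayed past the threshold, and 1 of 14 passed, Sik3 (adjusted p = 0.0056 beside lane and 0.17 without it), beside a background of 17.2%. Creb1 and Crem peaked at ZT20.62 and ZT19.57, whereas the co-activator Crtc2 and the kinase Sik2 peaked at ZT6.56 and ZT3.04. Sik1 had 101.7 ± 72.7 CPM at ZT3 and 9.16 ± 3.18 CPM at ZT0 (SD, n = 4). Of 13 PKA anchoring proteins tested, Akap1, Akap13, Akap8 and Akap9 passed (30.8%), which is below the background. Akap1, which holds PKA at mitochondria, was highest at ZT3 (446 ± 46.6 CPM) and lowest at ZT15 (269.9 ± 50.9 CPM). Of 6 other cAMP effectors Popdc2 and Hcn2 passed, also a share below the background.

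Gm20721, which shares 13.1% of the exon bases of Gnas on the opposite strand, had 25.1 ± 13.7 CPM at ZT0 and 4.64 ± 2.42 CPM at ZT6 (SD, n = 4, cosine adjusted p = 0.0081, edgeR), while its count was on average 0.819% of that of Gnas at ZT0.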
